A study of Mus musculus with 2 samples.

Results

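Genes that handle thyroid hormone were examined on 2 Affymetrix MOE430A arrays of whole mouse cochlea at E18.5. The genes were *Crym* and *Ttr*, which encode hormone binding proteins, the receptor genes *Thra* and *Thrb*, and the deiodinase genes *Dio2* and *Dio3*. Members were all probe sets that the platform annotation pairs with only 1 of these symbols, which gave 10 of 22626 probe sets and 5 of 12393 measured genes. *Dio3* had no such probe set and was not analysed here. The genes were chosen with their values on these arrays known, *Ttr* and *Crym* having been noted for lower levels on 1 of the arrays, so the values that follow are a description and no test was made.

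Both arrays were hybridised with RNA from embryos of a C57BL/6J background, bred from heterozygous parents that carry a targeted disruption of *Igf1*, the gene of insulin-like growth factor I. The comparison in the study is of *Igf1* null and wild type cochleae, dissected with the otic capsule and without vestibular tissue, and the labels give 8 cochleae per array. The labels contradict each other. One array is titled +/+ but its source name and description call it null. The other is titled −/− but called wild type there. They are therefore named here as the +/+-titled and the −/−-titled array, each difference is the value on the −/−-titled minus that on the +/+-titled array, and every sign turns if the source names hold. *Igf1* was read on both arrays, at a log2 level of 11.42 on the +/+-titled array and 11.03 on the −/−-titled array for its brightest probe set. Its other probe sets were at 8.11 and 7.37 and at 7.78 and 7.23, so all 3 were lower on the −/−-titled array, with differences of −0.42, −0.75 and −0.58. The sources used here do not say which part of the gene the disrupted allele lacks, so no genotype was assigned from these values. The disruption is carried by the whole animal, and most null mice die around birth.

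The thyroid gland releases mainly thyroxine (T4), which circulates bound to carriers such as transthyretin and enters cells through membrane transporters. In target tissue the type 2 deiodinase converts T4 into the active hormone T3, the type 3 deiodinase inactivates both, and T3 acts through nuclear receptors that bind DNA, mostly as partners of RXR. The cochlea depends on this hormone to mature: without it, the tectorial membrane, the inner sulcus and the sensory epithelium develop abnormally, and mice that lack *Thrb* or *Dio2* hear poorly.

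Levels are log2 values per probe set, with the lowest listed at exactly 0. The median level was 6.58 on the +/+-titled array and 6.63 on the −/−-titled array, and differences were centred by subtracting their median of 0.022. With 1 array per title there was no replicate and no error between animals. Repeat readings came only from genes with several probe sets, whose differences had a pooled SD of 1.17 in the lower tertile of mean levels, below 5.06, of 0.27 in the middle tertile and of 0.10 in the upper tertile, above 7.68. Probe sets differ in how brightly they bind, so differences were taken between the arrays for the same probe set, and the levels of member genes were not ordered against each other. Cochlear marker genes were present on both arrays. Of 8 measured, 6 were lower on the −/−-titled array. The 2 that were higher there were *Oc90*, at 11.23 on the +/+-titled array and 11.32 on the −/−-titled array, and *Otog*, at 8.17 and 8.22. *Otor*, which encodes the secreted protein otoraplin of the cochlea, was at 12.57 and 12.37, *Coch*, which encodes cochlin, at 9.58 and 9.20, and the tectorin gene *Tecta* at 9.78 and 9.28 on the +/+-titled and −/−-titled arrays, while *Otos* was dim, at 4.21 and 4.16.

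*Ttr*, *Crym* and the brightest probe sets of *Dio2* and *Thrb* had lower values on the −/−-titled array, and both probe sets of *Thra* had higher values there. In all, 7 of the 10 probe sets were lower and 3 were higher. Of the 7, 3 read the same gene, *Ttr*, and 1, of *Dio2*, differed by only −0.032. Over all measured genes, each read from its brightest probe set, 47.1% were lower. The 3 past 1 log2 unit, the size used in the study, were those of *Ttr*. Over all probe sets, 11.3% were past this size in either direction. That share was mainly made by dim probe sets, and in the upper tertile 0.0928% of probe sets were lower by more than 1 unit. The median over the 5 genes was −0.62, the value of the dim *Thrb*, and −0.54 with probe sets averaged. That over all genes was 0.0028. Because *Ttr* and *Crym* were chosen with their lower levels known, the choice itself favoured a low median, and the median tests nothing.

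**Figure D1:**
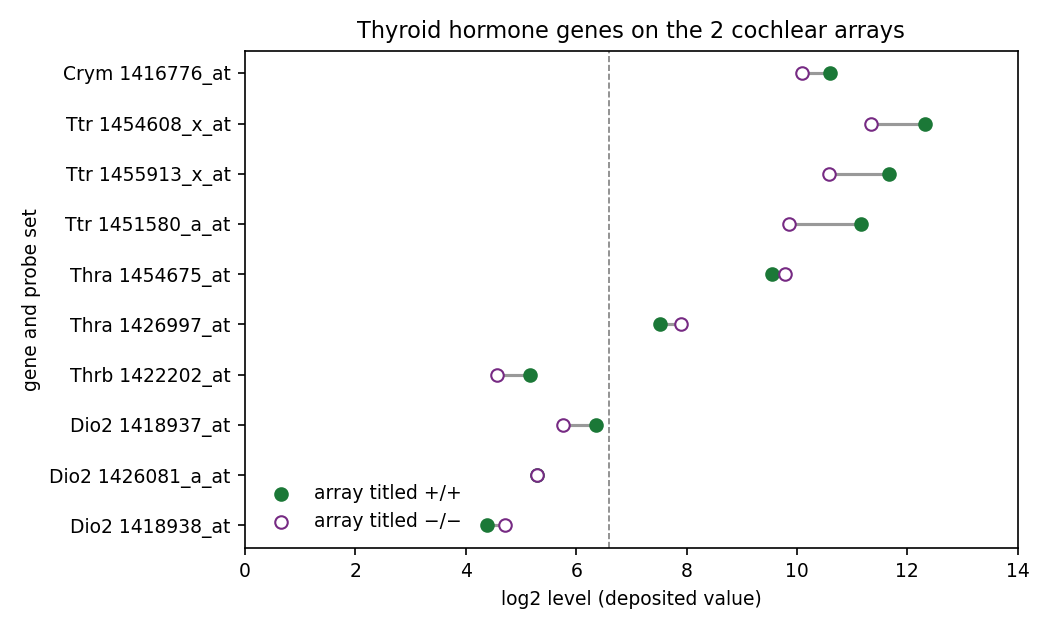
Log2 level (x axis) of the 10 member probe sets (y axis, gene and probe set) on the +/+-titled array (filled green) and the −/−-titled array (open purple), 1 value per array, joined by a line. The dashed line is the median mean level of all probe sets, 6.60. The 3 *Ttr* probe sets have the longest lines, the *Thra* points run the other way, and the *Dio2* probe set at 5.29 and 5.28 shows as 1 point because the values nearly coincide.

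*Ttr* encodes transthyretin, which carries T4 and, together with retinol binding protein, vitamin A in blood and cerebrospinal fluid. It is known as a product of liver and of the choroid plexus. Its 3 probe sets were bright on both arrays. Probe set 1454608_x_at was at 12.32 on the +/+-titled array and 11.34 on the −/−-titled array. Probe set 1455913_x_at was at 11.67 and 10.58, and probe set 1451580_a_at at 11.15 and 9.86, in the same order. All 3 were thus lower on the −/−-titled array. Their differences were −1.003, −1.10 and −1.32, which correspond to levels 2.004, 2.15 and 2.495 times as high on the +/+-titled array.

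The spread between the *Ttr* probe sets, an SD of 0.16 over 3, was larger than the pooled 0.10 of bright probe sets. It was smaller than any of the differences, but it comes from readings of the same arrays and gives no error between animals. The middle 95% of the 1000 probe sets nearest in level to 1451580_a_at had differences between −0.25 and 0.33. The suffix _x_at marks probe sets with probes that may bind other transcripts, whereas 1451580_a_at is not of that type and had the largest of the 3 differences. Without centring, the difference of the brightest probe set was −0.98 and no longer past 1 unit. Of 7542 probe sets in the upper tertile, 7 were lower by more than 1 unit. Of these, 3 were those of *Ttr*, 1 each belonged to the surfactant protein gene *Sftpc* and the immediate-early genes *Fos* and *Egr1*, and 1 is paired with more than 1 gene.

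*Crym* encodes mu-crystallin, a protein of the cytosol that binds T3 in the presence of NADPH. It is expressed in fibrocytes of the spiral ligament, and its mutations cause deafness in humans. Its single probe set, 1416776_at, was at 10.60 on the +/+-titled array and 10.08 on the −/−-titled array. The difference was −0.54, a level 1.45 times as high on the +/+-titled array. The middle 95% of the 1000 probe sets nearest in level lay between −0.24 and 0.29. With 1 probe set there was no second reading of this gene.

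**Figure D2:**
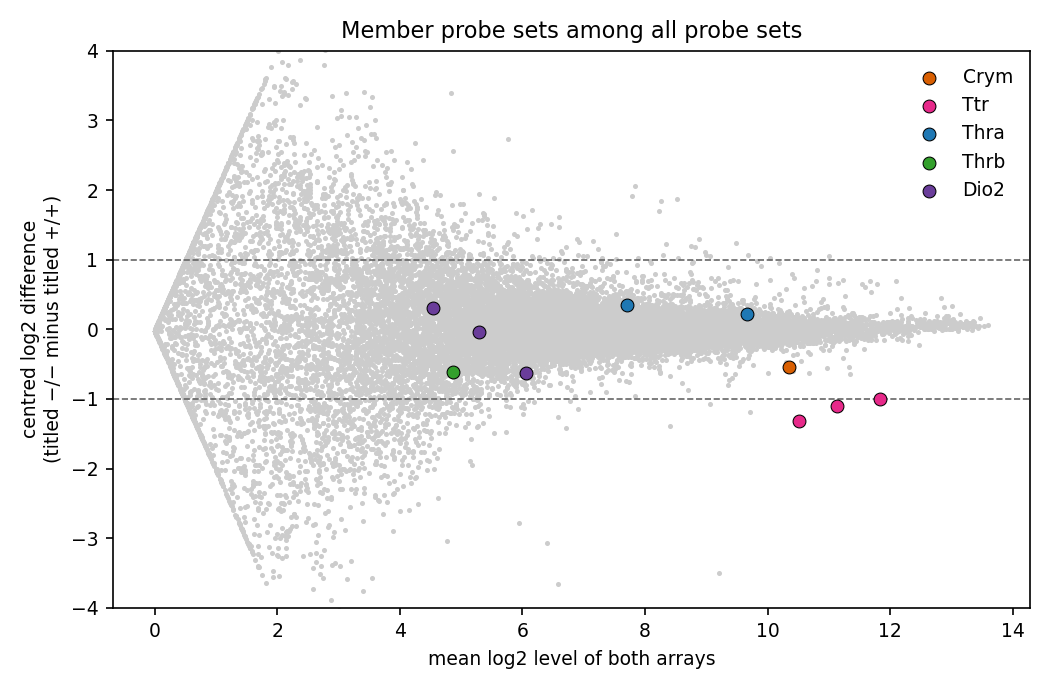
Centred log2 difference (y axis, titled −/− minus titled +/+) against mean log2 level of both arrays (x axis), 1 grey point per probe set and member probe sets in colour, with dashed lines at 1 and −1; 14 probe sets lie outside the plotted range. The *Ttr* points lie below the grey cloud at high level, that of *Crym* lies at its lower edge among a few others, and those of *Thrb* and *Dio2* lie inside it at low level.

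The receptor genes had differences of opposite sign, each inside the range of probe sets of like level. *Thra* encodes the receptor TRα1 and a splice form, TRα2, that does not bind T3. Probe set 1454675_at was at 9.55 on the +/+-titled array and 9.79 on the −/−-titled array, and probe set 1426997_at was at 7.52 and 7.89. Both were higher on the −/−-titled array, by 0.21 and 0.35. The middle 95% of probe sets of like level ran from −0.27 to 0.31 for the first and from −0.35 to 0.42 for the second, so each lay inside it. The sources used here do not say which splice forms these probe sets read. The gene of the circadian repressor *Nr1d1*, which overlaps the end of *Thra*, was at 0.35 and 0.53, close to the floor of both arrays.

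*Thrb* encodes TRβ, the receptor isoform whose loss causes deafness in mice. Its single probe set, 1422202_at, was at 5.16 on the +/+-titled array and 4.56 on the −/−-titled array. The difference was −0.62, within the −1.14 to 1.32 that held the middle 95% of probe sets of like level, and smaller than the SD of 1.17 between probe sets of the same gene at such levels.

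*Dio2* encodes the type 2 deiodinase, which in the cochlea is expressed in connective tissue and supplies the sensory epithelium with T3 before hearing begins. Its 3 probe sets did not point the same way. Probe set 1418937_at was at 6.37 on the +/+-titled array and 5.77 on the −/−-titled array, a difference of −0.62. Probe set 1426081_a_at was at 5.29 and 5.28, a difference of −0.032. Probe set 1418938_at was at 4.38 and 4.71, a difference of 0.31. All 3 were below the median of all probe sets, and their mean difference was −0.12 with an SD of 0.47. Probe set 1418937_at lay inside the range of probe sets of like level, −0.72 to 0.73. No direction of *Dio2* could be read from these arrays.

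Promoter sequence, from 250 bases before to 50 after the start in RefSeq (GRCm38.p6), was given for *Dio2*, *Dio3* and *Thrb* and not for *Crym*, *Ttr* and *Thra*. The windows are shown for the motifs by which cAMP signalling and nuclear receptors are known to act, since the *Dio2* promoter is a textbook target of cAMP. The palindromic cAMP response element TGACGTCA was searched on both strands and stood in the *Dio2* window, and in 1.79% of 32851 promoter windows. The nuclear receptor half-site AGGTCA stood in 1 of the 2 *Thrb* windows and in 16.3% of all windows. A direct repeat of this half-site with 4 bases between its copies, the classical site of thyroid hormone receptors, stood in none of these windows and in 0.015% of all windows. None of the 3 motifs stood in the *Dio3* window. A match describes letters in the window and not a site in use. In the lines that follow, capitals mark the motif.
Dio2, chr12:90739116-90739143, minus strand: tctttctcaaTGACGTCAagatctttag
Thrb, chr14:17660766-17660793, plus strand: gagagttgacAGGTCAagggaatagggc

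Genes whose differences were closest to those of the members, among genes with a mean level within 1 log2 unit, were looked up for the 4 members that differed by more than 0.5. This likeness is a difference between 2 arrays and nothing more. None of 303 genes near *Ttr* in level had a difference as low. The nearest were *Clu*, which encodes clusterin, at −0.64, *Igf1* at −0.42 and *Matn4*, a matrilin gene, at −0.29. Near *Crym*, 6 of 1366 genes were as low or lower, and the closest were *Tecta* at −0.52, the transcription factor gene *Irx3* at −0.51 and the collagen gene *Col26a1* at −0.47. Near the dim members, more genes had differences as low than near *Ttr* and *Crym*. Of 2620 genes near *Dio2* 77, and of 1857 genes near *Thrb* 239, were as low or lower. The closest were *Atrx*, *Dram1* and *Sspo* for *Dio2*, at −0.62, −0.63 and −0.63, and *Gab3*, *Gstm6* and *St6galnac2* for *Thrb*, each at −0.62.

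Of 70 further genes of the pathway in 9 lists, 60 were measured. Of these, 34, or 56.7%, were lower and 26 higher on the −/−-titled array, with a median of −0.032. Over all measured genes, 47.1% were lower, with 5838 lower and 6263 higher. Differences past 1 unit were found for 13, of which 7 were lower and 6 higher, against 9.6% of all genes. None of the 13 had a mean level above the median of all genes, 7.10. Among the 35 pathway genes at or below that level the share was 37.1%, and among all such genes it was 18.8%. With a floor for all values at the 25th percentile, 3 genes were past 1 unit.

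The 2 brightest genes of hormone entry, *Slc3a2* and *Slc7a5*, had near equal levels on both arrays. The 7 measured transporter genes had a median of −0.0084 and none was past 1 unit. *Slc7a5*, a transporter of large neutral amino acids and of thyroid hormone, was at 7.69 on the +/+-titled array and 7.70 on the −/−-titled array, and its heavy chain gene *Slc3a2* at 9.09 and 9.26. The organic anion transporter gene *Slco3a1* was at 6.34 and 6.45, and *Slco1c1*, the T4 transporter of brain capillaries, at 5.53 and 5.59. The largest differences were those of dim genes of the same family, *Slco1a4* at −0.70 and *Slco1a5* at −0.39. The second probe set of *Slco1a5* was at −1.66, and the 3 of *Slco3a1* ran from −0.75 to 0.61. The other carrier measured, albumin, *Alb*, was at 6.14 and 4.22. *Dio1*, the deiodinase gene of liver and kidney, was listed at 0 on the +/+-titled array and was at 0.55 on the −/−-titled array.

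None of the genes measured as partners of the receptors was past 1 unit for its brightest probe set, while dimmer probe sets of *Rxra* and *Med1* were at −1.77 and 1.46. The RXR genes *Rxra*, *Rxrb* and *Rxrg* differed by −0.093, −0.017 and 0.16, and the sign of *Rxrb* turned without centring. Of 10 measured cofactor genes, 5 were lower and 5 higher, with a median of −0.013 and none past 1 unit. Among the brightest, *Tbl1x*, a subunit of the corepressor complex, was at 9.58 and 9.61, *Trip12* at 9.51 and 9.60, *Thrap3* at 9.50 and 9.42, and *Med1*, a subunit of Mediator that binds the receptors, at 9.31 and 9.21. Deiodinases are selenoproteins, and of 5 genes for making such proteins or carrying selenium, 4 were lower, with a median of −0.23. Selenoprotein P, *Selenop*, was higher, at 11.39 and 11.58, *Sephs2* was at 8.13 and 7.85, *Pstk* at 7.52 and 7.32, *Eefsec* at 7.04 and 6.84, and the dim *Sepsecs*, past 1 unit, at 3.92 and 2.56. Of 5 sulphotransferase genes, *Sult1a1* was at 7.38 and 7.69, and the 3 past 1 unit, *Sult1b1*, *Sult1d1* and *Sult2b1*, were all below a level of 4 on both arrays.

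**Figure D3:**
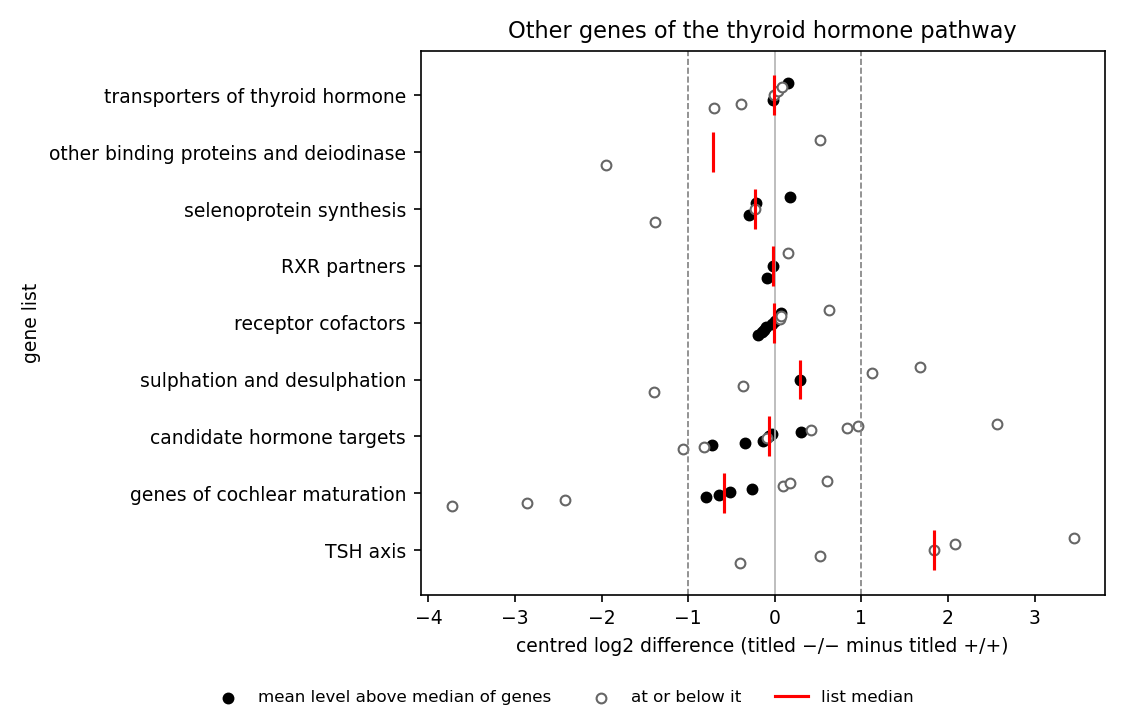
Centred log2 difference (x axis, titled −/− minus titled +/+) of 60 further genes of the pathway, 1 point per gene and 1 row per list (y axis), filled where the mean level was above the median of all genes, with the list median in red and dashed lines at 1 and −1. All filled points lie between the dashed lines, and the 13 points outside them are open.

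Genes that T3 is known or thought to regulate did not shift together. Of 13, 8 were lower and 5 higher, with a median of −0.071. *Klf9*, a direct target of the hormone in brain, was at 8.54 on the +/+-titled array and 8.53 on the −/−-titled array for its brightest probe set. Its 7 probe sets differed by −1.83 to 0.24. *Atp2a2*, the calcium pump gene, was at 10.32 and 10.27, and the malic enzyme gene *Me1* at 7.71 and 7.59. *Thrsp*, a target in fat and liver, was at 7.01 and 7.33, a difference of 0.30, and its other probe set differed by −0.21. *Mbp*, which encodes myelin basic protein, was at 9.71 and 9.01, a difference of −0.72, and its 8 probe sets ranged from −0.73 to 0.24. *Hr*, which encodes a corepressor of the receptors, was at 4.64 and 5.61 for one probe set, a difference of 0.95, and its other probe set differed by −0.22. The genes past 1 unit were *Pcp2*, a Purkinje cell gene, at 2.56, and *Myh6*, a myosin gene of heart, at −1.06. The other *Myh6* probe set, at 0.36 on the −/−-titled array, was listed at 0 on the +/+-titled array, and both other *Pcp2* probe sets were listed at 0 there.

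Of 10 measured genes of cochlear maturation, several of which are known to be delayed without the hormone, 7 were lower on the −/−-titled array, with a median of −0.58 or −0.28 with the floor. The brightest were the tectorin genes *Tecta* and *Tectb*, at −0.52 and −0.64, and the connexin genes *Gjb2* and *Gjb6*, at −0.80 and −0.27. *Otof*, the otoferlin gene of hair cells, was at 6.38 on the +/+-titled array and 6.57 on the −/−-titled array, and *Kcnj10*, the potassium channel gene whose appearance in the stria depends on the hormone, at 6.36 and 6.48. The 3 genes past 1 unit were *Kcnq1*, at 5.81 and 3.42, and *Kcne1*, at 4.43 and 0.72, the potassium channel subunits of strial marginal cells, and the prestin gene *Slc26a5*, at 2.83 and listed at 0. Of the hormone axis above the thyroid gland, *Trh* was at 0.51 and 3.98, the TSH subunit gene *Tshb* at 3.10 and 4.96, and *Cga* was listed at 0 and at 2.10, whereas *Trhr* was at 4.75 and 4.38. These are dim, and the median of the 5 genes was 1.83, or 0 with the floor. *Tshb* and *Cga* are also pituitary genes. Of the other pituitary genes, *Gh*, the growth hormone gene, was at 7.57 and 9.47, with differences of its 4 probe sets between 1.84 and 2.05. *Pomc* was at 5.86 and 7.34, while *Prl*, at 2.65 and 0.96, and *Lhb*, at 4.27 and 3.52, were lower. The part of pituitary tissue in the values of this axis was not tested.

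Markers of other tissues differed between the arrays together with *Ttr* and *Crym*. In whole tissue, fewer cells of a type and less RNA per cell cannot be told apart. Of 14 measured liver genes, 9 were lower and 4 higher on the −/−-titled array and *Fgb* was listed at 0 on both. The log2 of their summed level, a sum led in each list by its brightest probe sets, was 7.84 on the +/+-titled array and 6.65 on the −/−-titled array. On the +/+-titled array the leading ones were *Alb*, at 6.14 and 4.22, *Afp*, at 5.42 and 1.18, and *Apoa1*, at 4.46 and 1.93. *Ahsg* was at 2.64 and listed at 0. On the −/−-titled array *Apoa2*, at 3.33 and 4.41, and *Itih3*, at 2.18 and 4.30, led. These were higher there, as were *Fgg*, at 1.88 and 2.57, and *Ambp*, at 0.17 and 1.39. The 5 probe sets of *Afp* differed by −4.26 to 0.67, and the 4 of *Apoa1* by −2.56 to −0.022. None of the 14 had a mean level above the gene median, and their median was −1.48, or 0 with the floor. Of 8 choroid plexus genes, 7 were lower and 1, *Otx2*, was higher, with summed levels of 11.21 and 11.08. The 4 bright ones, *Aqp1*, *Sostdc1*, *Calml4* and *Trpv4*, which lead these sums, differed by −0.18, −0.12, −0.11 and −0.073. The dimmer *Kl*, *Kcne2*, *Folr1* and *Otx2* differed by −1.48, −1.32, −0.52 and 0.96. The part of cochlear cells in the values of these genes was not tested. None of these genes was at 0. All 8 lung epithelium genes were lower for their brightest probe set, with summed levels of 11.57 and 9.23. The 2 probe sets of *Sftpa1* differed by −4.13 and 0.68, and the 3 of *Abca3* by −0.19 to 0.98. The part of such tissues in the *Ttr* difference was not tested.

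Of 7 genes of spiral ligament fibrocytes, 5 were lower and 2 higher on the −/−-titled array, with a median of −0.21 and summed levels of 13.05 and 13.06. *Pou3f4* and *Tbx18*, transcription factor genes of otic mesenchyme, differed by −0.64 and −0.67, *Coch* by −0.40 and the cotransporter gene *Slc12a2* by −0.21, while the bright *Car3* differed by 0.17 and *Atp1b1* by 0.29. Of 8 cochlear markers, 6 were lower, with a median of −0.22. All 12 skeletal muscle genes and all 8 genes of astrocytes and hindbrain were higher on this array, with medians of 0.83 and 0.40, as were 4 of 6 pituitary genes, with a median of 1.65, or 0.42 with the floor. Of 6 red blood cell genes 4 were lower, with a median of −0.72. It was −0.21 with the floor, and the sign turned, to 0.21, over those of the 6 genes above the gene median. The part of these tissues in the *Crym*, *Thra* and *Dio2* differences was not tested.

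**Figure D4:**
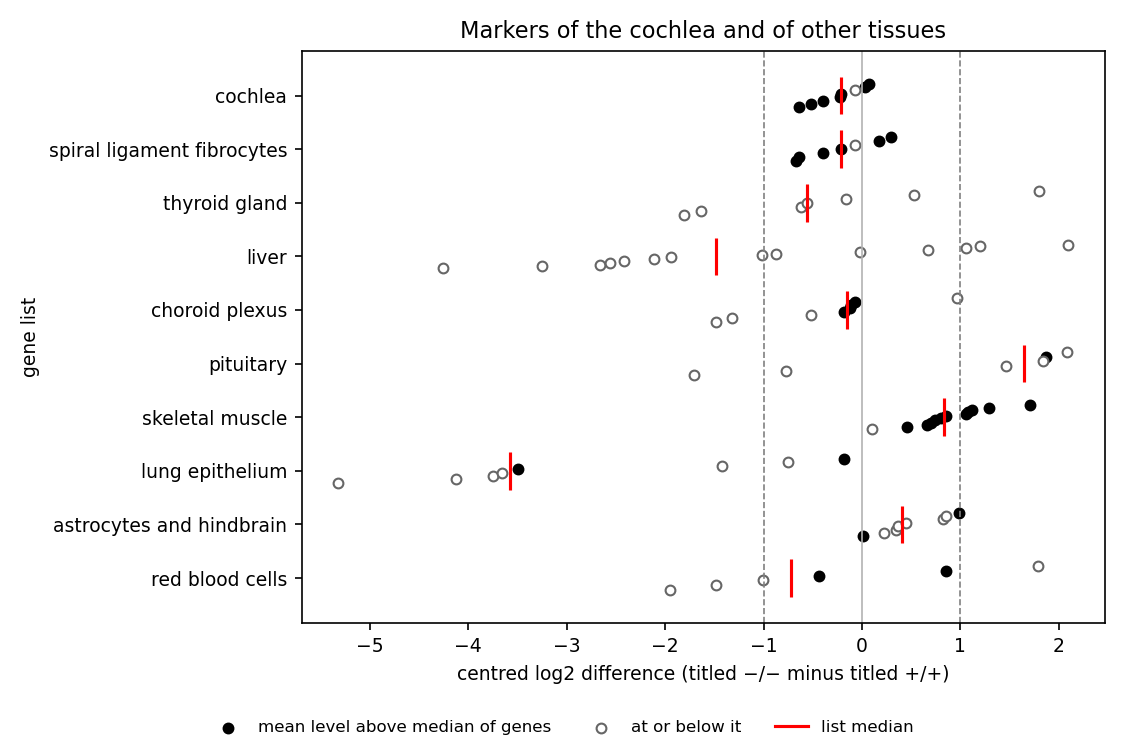
Centred log2 difference (x axis, titled −/− minus titled +/+) of marker genes of the cochlea and of other tissues, 1 point per gene and 1 row per list (y axis), filled where the mean level was above the median of all genes, with the list median in red and dashed lines at 1 and −1. Lung epithelium points all lie left of 0, muscle points all lie right of it, and the liver points, all open, spread from −4.26 to 2.10.

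Thyroid gland markers were dim on both arrays. Of 7 measured, none was above the median of all genes, 5 were lower and 2 higher on the −/−-titled array, and the summed levels were 6.79 and 6.34. The higher ones were *Iyd*, at 2.23 on the +/+-titled array and 4.05 on the −/−-titled array, a difference of 1.80, and *Tshr*, at 0.90 and 1.45. Thyroglobulin, *Tg*, the hormone precursor, was at 3.71 on the +/+-titled array and 1.92 on the −/−-titled array, the iodide transporter gene *Slc5a5* at 4.91 and 3.30, *Pax8* at 4.98 and 4.84, and the gland's transcription factor gene *Nkx2-1*, which lung epithelium also expresses, at 2.85 and 2.31.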

How the data were processed

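The authors hybridised biotin-labelled cRNA to MOE430A arrays and named MAS5.0, RMA and multi-mgMOS of the PUMA package, without versions. The sources used here do not say which made the deposited log2 levels, nor how the arrays were scaled or centred. That the log has base 2 was inferred from their maximum of 13.64 without controls. The methods describe 3 pools per genotype, each of 2 embryos, which does not match the 8 cochleae per array of the labels. The methods also do not say if each deposited column stands for 1 array.

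Of 22690 probe sets, 64 controls were left out, 20380 are paired with 1 symbol, 691 with several and 1555 with none. Symbols were updated through gene identifiers (RefSeq, GRCm38.p6, 20351 matched). A gene was read from its probe set of highest mean level. Differences were centred on their median, and no test or p-value was computed. Depth has no meaning for arrays, and their number limits the precision. Members and lists were chosen with earlier results of these data known. Named genes were all member probe sets, up to 4 genes of highest level per list, those past 1 unit at high level, those behind a count of 5 or fewer, and the 3 closest genes. This rule was not followed in full. Genes of skeletal muscle, of astrocytes and hindbrain, and of red blood cells were given as counts and medians only. Other genes named from the lists, and *Nr1d1* and *Igf1*, were chosen after their values were seen. Alternatives were no centring, quantile normalization, loess (span 0.3), a floor at the 25th percentile (4.11), averaged probe sets, no _x_at or _s_at probe sets, levels above the median and a size limit of 0.5. Steps were tested on simulated data. Python 3.11.15, numpy 2.4.6, pandas 2.3.3, statsmodels 0.14.6 and matplotlib 3.10.9 were used.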

Additional observations from a re-analysis of the deposited data

How the results depend on the processing

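Of 70 recomputed member values, all kept their sign, and 67 moved by less than the SD between probe sets of their tertile of level. The others were *Ttr* at −1.14 and *Dio2* at −0.12 with probe sets averaged, and *Ttr* at −1.32 without _x_at and _s_at probe sets. Many of the 70 could not differ, so their count does not measure robustness. The floor lay below every member level, so its member values equal those without centring. Under each scaling, the value of a gene repeats that of its brightest probe set. *Crym* and *Thrb*, with 1 probe set each, cannot change when probe sets are averaged or left out by suffix. Over no centring, quantile normalization, loess and the floor, *Ttr* ranged from −1.03 to −0.98, *Crym* from −0.54 to −0.52, *Thra* from 0.22 to 0.24, *Thrb* from −0.66 to −0.59 and *Dio2* from −0.66 to −0.60. In place of 2558 probe sets and 13 pathway genes past 1 unit, 307 and 3 were found with the floor, 43 and 0 with levels above the median, and 5309 and 25 at a limit of 0.5. Of 129 recomputed medians of the other lists, 122 moved by less than the SD of 0.61 over all such probe sets. The others were those of the TSH axis at 0, liver at 0, pituitary at 0.42 and lung epithelium at −1.42 with the floor, lung epithelium at −1.96 with probe sets averaged, and lung epithelium at −1.84 and red blood cells at 0.21 with levels above the median. The medians of RXR partners, receptor cofactors and transporters, close to 0, changed sign between scalings, as did *Rxrb*, *Slc7a5* and *Slc7a8*. No paired analysis was possible because each title has 1 array. No alternative bears on the contradiction of the labels.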
